A study of Mus musculus with 6 samples.

Results

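The genes described here are Trp53, which encodes p53, its paralogs Trp63 and Trp73, and 5 genes for proteins that control p53: Mdm2, Mdm4, Rchy1, Ppm1d and Usp7. They were chosen by gene symbol and make up 8 of the 36172 genes in the deposited table, and each symbol matched 1 entry. All 8 were measured in 6 RNA-seq libraries of mouse intestinal tumor organoids, which are cultures of tumor epithelial cells grown in 3 dimensions. The comparison asked how the RNA of p53, its family and its regulators differed when Trp53 was wild type, null or mutant.

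The organoids came from small intestinal tumors of C57BL/6 mice aged 15 to 20 weeks, and every group carried the Apc Δ716 truncation with loss of the other Apc allele. There were 3 genotypes with 2 mice each: Trp53 +/+, Trp53 flox/flox and Trp53 R270H/R270H, and organoids of each mouse were prepared separately. The flox allele is the unrecombined LSL-R270H allele and acts as a null allele, whereas tamoxifen and villin-CreER, a recombinase driven by an intestinal epithelial promoter, turn it into an allele that expresses p53 R270H. Tamoxifen treatment and the recombined allele therefore cannot be told apart between flox/flox and R270H/R270H, and whether the +/+ mice carried the recombinase or were given tamoxifen is not given in the sources used here. The libraries were made from poly(A) RNA, so a lower value in these bulk samples does not separate fewer cells that express a gene from less RNA per cell.

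Expression was given in rpkm, read numbers scaled to gene length and to the mapped reads of the library, and no value in the table was below 1, which is called the floor here. Read counts were not part of the table, so counting intervals could not be given. The 10042 genes that reached 4 rpkm in any library were tested. Differences between genotypes were estimated as log2(rpkm+1) with limma, and adjusted p-values are Benjamini-Hochberg values over all 10042 genes. A gene was called when its adjusted p-value was under 0.05. Across genes, replicates correlated at 0.996 in +/+, 0.993 in R270H/R270H and 0.932 in flox/flox, of which replicate 1 stood apart. In that library the median difference from the +/+ mean was 0.54 on the log2 scale for genes whose longest annotated transcript was under 1500 nt and −0.59 for genes of 6000 nt or more, whereas the same medians in flox/flox replicate 2 were 0.07 and −0.03. The intestinal epithelial markers Epcam, Cdh1 and Vil1 were above 90 rpkm in all 6 libraries, while Krt20, at 2.03 to 5.94 rpkm, was the lowest of the 10 epithelial markers in every library and Cdx1 lay between 4.73 rpkm in flox/flox replicate 2 and 37.02 rpkm in flox/flox replicate 1. The 10 summed to 3544 to 3592 rpkm in +/+, 4783 to 5724 in flox/flox and 2910 to 3039 in R270H/R270H, without overlap between the genotypes. The fibroblast and smooth muscle markers summed to 293 to 315 rpkm in R270H/R270H, to 57.95 to 76.96 in +/+ and to 40.4 to 79.6 in flox/flox, and 284 to 306 rpkm of the R270H/R270H sum was Vim, while 3 of the 9 markers, Col1a2, Col3a1 and Des, stood at 1 in all 6 libraries. In flox/flox replicate 2 Acta2 was 11.5 rpkm and Col1a1 2.44, against at most 1.59 and 1 elsewhere. Pdgfra, Pdgfrb and Dcn were above 1 only in that library, at 1.05 to 1.36 rpkm, and Vim was lowest there, at 19.8. The leukocyte markers summed to 10.03 to 10.86 rpkm in R270H/R270H, 29.3 to 31.9 in +/+ and 19.4 to 31.1 in flox/flox, with 5 of 7 markers at 1 throughout, among them Ptprc, Cd3e and Cd79a. The endothelial markers summed to 5.13 to 5.20 rpkm in R270H/R270H, 15.9 to 16.3 in +/+ and 5 to 27.7 in flox/flox, with 3 of 5 markers, Pecam1, Kdr and Eng, at 1 throughout, and the part of these markers in the results below was not tested.

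p53 is a transcription factor that is made continuously and degraded quickly in unstressed cells. Its main ligase, Mdm2, attaches ubiquitin to it, and because Mdm2 is itself a transcriptional target of p53, the pair forms a feedback loop that holds p53 low until stress interrupts it. Mdm4 pairs with Mdm2 and masks the activation domain of p53, Rchy1 (Pirh2) is a further p53 ligase, Usp7 (HAUSP) removes ubiquitin from p53 and Mdm2, and Ppm1d (Wip1) is a phosphatase that switches off stress signals to p53. In intestinal tumors the loss or mutation of p53 is usually a late step that follows loss of Apc.

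Trp53 lies on chromosome 11 of the mouse genome (GRCm38, chr11:69580359-69591873, plus strand). Codon 270, which the R270H mutation changes from arginine to histidine, lies in exon 8 of 11 of the 390-codon transcript in GENCODE M21. The reference coding sequence around it, chr11:69589595-69589624, is shown because it is the site that the R270H mutation changes, with codon 270 in capitals. The flox allele is the same R270H allele before recombination, so this site does not separate flox/flox from R270H/R270H. The deposited gene-level values do not show which base the reads carried there.
Trp53 codon 270: agctttgaggttCGTgtttgtgcctgccct

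The promoters were searched for the 10-base p53 consensus decamer, the repeat unit of the element that p53 binds. The decamer is its own reverse complement, so that a search covers both strands. Windows of 300 bases, from 250 before to 50 after each annotated start, were taken from RefSeq (GRCm38.p6), where 7 of the 8 genes had 10 windows in all and Trp63 had none. The decamer was found in 4 of these 10 windows and in 8.36% of all 32851 windows. The matches are shown with their flanks, decamer in capitals and in the direction of transcription, because they are where these genes carry the letters of 1 such repeat unit near their starts. A single unit is not a whole element, and sequence outside the windows was not searched. A match describes the sequence and does not show that p53 binds there.
Trp53 (chr11:69580274-69580303, plus strand, 75 bases before the start): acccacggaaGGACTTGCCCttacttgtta
Mdm2 (chr10:117710925-117710954, minus strand, 186 bases before the start): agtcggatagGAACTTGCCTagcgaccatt
Rchy1 (chr5:91962627-91962656, minus strand, 90 bases before the start, in 1 of 2 windows): cactatgacaGAGCTTGTCTcctcaaggtg
Ppm1d (chr11:85311112-85311141, plus strand, 132 bases before the start): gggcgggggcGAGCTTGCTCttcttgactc
The windows of Mdm4, Trp73 and Usp7 held no decamer.

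The 8 genes ranged from the floor to 82.7 rpkm. In the +/+ libraries Trp53 had the highest rpkm of the set and exceeded 91.9% and 91.5% of tested genes in replicates 1 and 2. It was followed in both libraries by Usp7, Mdm2, Mdm4, Rchy1 and Ppm1d, and Usp7 and Mdm2 in that order were 44.5 and 40.5 rpkm in replicate 1 and 45.3 and 44.2 rpkm in replicate 2. In R270H/R270H libraries Trp53, Usp7 and Rchy1 held the first places, while Mdm4 and Mdm2 changed places between replicates and did not differ beyond their spread. In flox/flox libraries Trp53 was the lowest gene above the floor, and Rchy1 led in replicate 1 but Usp7 in replicate 2.

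**Figure D1:**
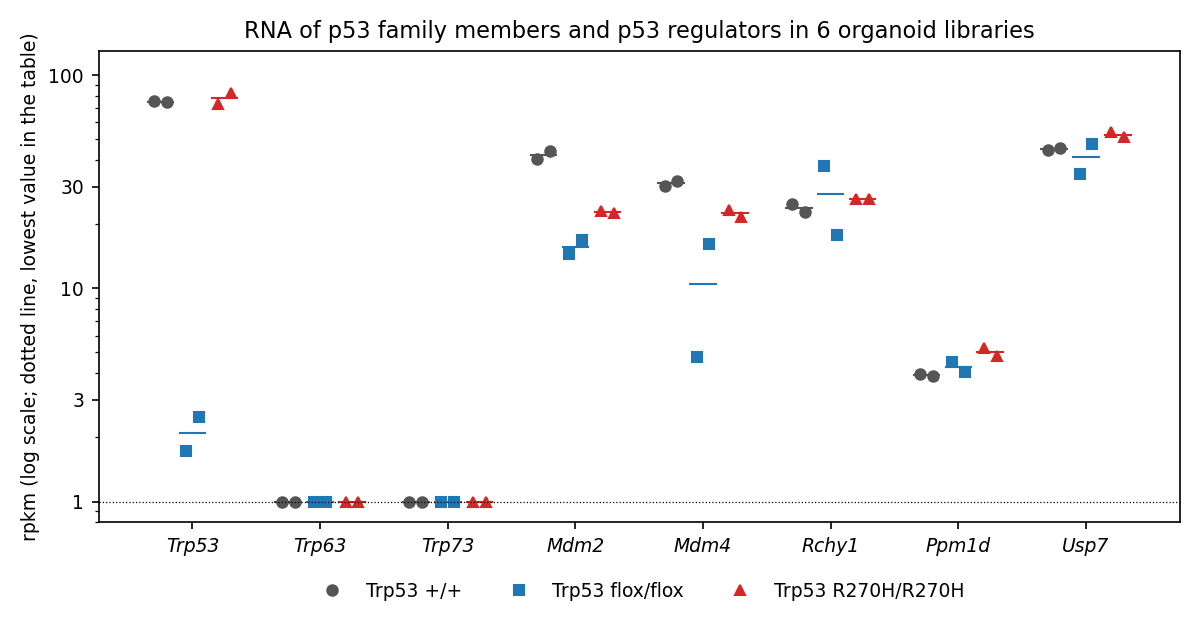
The plot gives rpkm on a log scale for the 8 genes in every library (points, 2 per genotype) with the genotype mean as a short line, and a dotted line marks the floor of 1. Trp53 was 1.73 and 2.48 rpkm in flox/flox and above 70 rpkm in the other genotypes, Mdm2 was highest in +/+, and Trp63 and Trp73 stood at the floor in all 6 libraries.

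Trp53 RNA followed the genotype labels. It was 75.9 and 74.3 rpkm in the +/+ libraries (75.1±1.10, mean±s.d., n=2), 1.73 and 2.48 rpkm in flox/flox (2.11±0.529) and 72.8 and 82.7 rpkm in R270H/R270H (77.7±7.002). The flox/flox libraries were far below all others, and the R270H/R270H libraries lay on both sides of the +/+ libraries. Both flox/flox values were under 4 rpkm, so Trp53 entered the test only through the groups in which it was higher. Against +/+, the log2 fold change was −4.63 in flox/flox (s.e. 0.15, limma adjusted p=0.00124). In R270H/R270H it was 0.046, with a 95% interval from −0.34 to 0.43 (adjusted p=0.868), and without R270H/R270H replicate 2 the difference was −0.045. R270H/R270H exceeded flox/flox by 4.67 (s.e. 0.15, adjusted p=0.00143). Both differences that involve flox/flox were called under all 19 alternative settings, but these calls check the label and carry no weight as to direction. With 2 libraries per genotype an exact permutation test of a single gene cannot give a two-sided p-value below 0.333, so every call rests on the spread that limma shares across genes.

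The paralogs were not detected. Trp63 encodes p63, the regulator of basal cells in squamous epithelia (chr16:25683763-25892102), and Trp73 encodes p73, which takes part in the formation of multiciliated cells (chr4:154056253-154140208). Both stood at 1 rpkm in all 6 libraries and were among 23760 genes that did, so that any level under the floor remained unknown and neither gene was tested. The squamous basal markers Krt5, Krt15 and Col17a1 and the multiciliated markers Foxj1, Ccno and Tekt1 stood at the floor in all 6 libraries as well. Other squamous basal markers did not: Dsg3 was 2.18 and 4.52 rpkm in +/+ and 1 elsewhere. Krt14 reached 4.95 rpkm in flox/flox replicate 2, and Krt6a reached 2.71 rpkm in flox/flox replicate 1. The 6 squamous basal markers summed to 7.18 to 9.57 rpkm in +/+, 8.43 to 10.3 in flox/flox and 6.33 to 6.52 in R270H/R270H, and 4 multiciliated markers to 4, 4 to 4.31 and 4.08 to 4.17 in the same order. Thus no group gained RNA of either paralog above 1 rpkm when Trp53 was lost or mutated.

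Mdm2, the ligase of the feedback loop (chr10:117688875-117710758), was lower in both mutant genotypes. It was 40.5 and 44.2 rpkm in +/+ (42.3±2.58), 14.4 and 16.9 rpkm in flox/flox (15.7±1.76) and 23.0 and 22.5 rpkm in R270H/R270H (22.7±0.384). The genotypes did not overlap, with +/+ highest, flox/flox lowest and R270H/R270H between them. Mdm2 fell by 1.38 on the log2 scale in flox/flox against +/+ (s.e. 0.12, limma adjusted p=0.00794) and by 0.87 in R270H/R270H against +/+ (s.e. 0.12, adjusted p=0.0156). In R270H/R270H it was higher than in flox/flox by 0.51 (s.e. 0.12, 95% interval 0.22 to 0.81, adjusted p=0.0348).

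These Mdm2 calls differed in how they held. Its log2 fold changes over the 19 alternatives ranged from −1.49 to −1.27 in flox/flox and from −0.93 to −0.81 in R270H/R270H against +/+, and from 0.41 to 0.62 between the mutant genotypes, without a change of direction. The R270H/R270H difference from +/+ was no longer called without +/+ replicate 1 or 2 (adjusted p=0.149 and 0.197) or without R270H/R270H replicate 1 or 2 (0.172 and 0.146). The flox/flox difference from +/+ was not called without +/+ replicate 1 or 2 (0.123 and 0.153) or without R270H/R270H replicate 1 or 2 (0.0700 and 0.0705). With no filter on low values the adjusted p-values were 0.0654 for R270H/R270H and 0.0555 for flox/flox against +/+, and these calls were made in 14 and 13 of the 19 alternatives. The difference between the mutant genotypes was called in 11 of the 19 alternatives, and not without +/+ replicate 1 or 2 (0.113 for each) or without R270H/R270H replicate 1 or 2 (0.221 and 0.162). Without flox/flox replicate 1 the log2 fold changes of Mdm2 were −1.27 in flox/flox against +/+ and 0.41 in R270H/R270H against flox/flox. A fit without 1 of the flox/flox libraries, whichever it is, takes the remaining one to vary like the other genotypes, whose replicates lay closer together. Its smaller p-values, here and for the genes below, are therefore no sign of stability. R270H/R270H against +/+ holds no flox/flox value, so there the omission changed the spread and not the size of a difference.

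Mdm4, the partner of Mdm2 that lacks ligase activity of its own (chr1:132959484-133030561), was 30.2 and 31.8 rpkm in +/+ (31.0±1.12). It was 4.76 and 16.2 rpkm in flox/flox (10.48±8.09) and 23.4 and 21.5 rpkm in R270H/R270H (22.5±1.30). All 4 mutant libraries were below both +/+ libraries and the 3 genotypes did not overlap, but flox/flox replicate 1 was lower than replicate 2, with a difference of −1.58 on the log2 scale. None of its comparisons was called. The log2 fold changes were −1.69 in flox/flox against +/+ (s.e. 0.50, limma adjusted p=0.0863), −0.45 in R270H/R270H against +/+ (adjusted p=0.586) and 1.24 in R270H/R270H against flox/flox (adjusted p=0.123).

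The longest Mdm4 transcript in the annotation has 7105 nt, which puts it in the length class whose median was −0.59 in flox/flox replicate 1. Without that library, with 1 flox/flox library taken to vary like the other genotypes, the 3 differences of Mdm4 were −0.90 (adjusted p=0.0019), −0.45 (adjusted p=0.00392) and 0.45 (adjusted p=0.00858) in the same order. Without flox/flox replicate 2 in its place, the flox/flox difference from +/+ was −2.47 and that between the mutant genotypes was 2.02. With each library adjusted for transcript length, the flox/flox difference from +/+ was −1.40 (adjusted p=0.0447) and the R270H/R270H difference was −0.57 (adjusted p=0.277). Fitted with only +/+ and R270H/R270H, the difference of −0.45 between them had a limma adjusted p-value of 0.00231, and with weights for each genotype 0.0113. This difference was called in 4 of the 19 alternatives. In flox/flox replicate 2, where the median of this length class was −0.03, Mdm4 was lower than the +/+ mean by 0.90 on the log2 scale. The part of the length trend in the low value of replicate 1 was not tested.

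**Figure D2:**
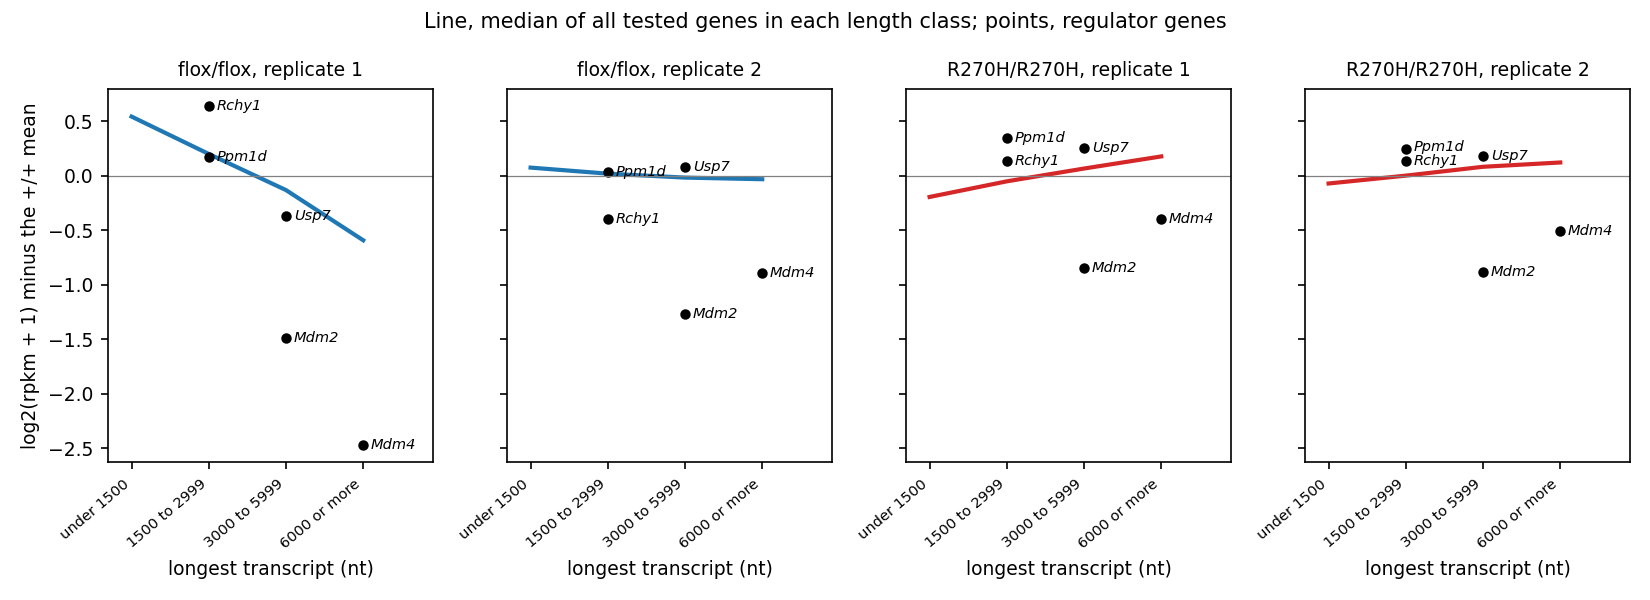
Each panel shows 1 library of a mutant genotype. The line gives the median difference in log2(rpkm+1) from the +/+ mean over all tested genes in 4 classes of longest transcript length (nt), and the points give Mdm2, Mdm4, Rchy1, Ppm1d and Usp7 in their classes, with Trp53 left out for scale. The line fell from 0.54 to −0.59 in flox/flox replicate 1 and from 0.07 to −0.03 in replicate 2. It rose from −0.20 to 0.18 and from −0.07 to 0.12 in the R270H/R270H libraries, and Mdm2 and Mdm4 were below it in every panel.

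Rchy1, the further p53 ligase (chr5:91948904-91963068), did not separate the genotypes. It was 24.8 and 22.7 rpkm in +/+ (23.7±1.49), 37.5 and 17.8 rpkm in flox/flox (27.6±13.9) and 26.1 and 26.1 rpkm in R270H/R270H (26.1±0.0155). The flox/flox libraries lay on opposite sides of all others, 0.64 above and 0.40 below the +/+ mean on the log2 scale. The log2 fold changes were 0.13 in R270H/R270H against +/+ (95% interval −0.71 to 0.98, limma adjusted p=0.820), 0.12 in flox/flox against +/+ (−0.73 to 0.97, adjusted p=0.814) and 0.01 between the mutant genotypes (−0.83 to 0.86, adjusted p=0.982). Without flox/flox replicate 1 the flox/flox difference from +/+ was −0.40, and without replicate 2 it was 0.64. The difference between the mutant genotypes was 0.53 without the first and −0.50 without the second. Over 650 tested genes of chromosome 5, on which Rchy1 lies, the median difference between the flox/flox libraries was 0.33, against 1.04 for Rchy1, and its part in the result was not tested. Rchy1 overlaps the opposite-strand gene Thap6 over 680 bases, whether the counting used the strand is not stated, and Thap6 was at 2.84 to 4.91 rpkm in the 6 libraries.

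Ppm1d, the phosphatase gene (chr11:85311244-85347066), was the lowest of the detected regulators. It was 3.95 and 3.88 rpkm in +/+ (3.92±0.0469), 4.53 and 4.04 rpkm in flox/flox (4.29±0.342) and 5.24 and 4.83 rpkm in R270H/R270H (5.04±0.290). The groups did not overlap, with R270H/R270H highest, but both +/+ libraries were under 4 rpkm, so that Ppm1d entered the test only through the groups in which it was higher. No difference was called. The log2 fold changes, given as a description without a p-value for that reason, were 0.30 in R270H/R270H against +/+ (95% interval −0.02 to 0.61), 0.10 in flox/flox against +/+ (−0.21 to 0.42) and 0.19 between the mutant genotypes (−0.12 to 0.51).

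Usp7, the deubiquitinase gene (chr16:8689595-8792308), was 44.5 and 45.3 rpkm in +/+ (44.9±0.572). It was 34.5 and 47.7 rpkm in flox/flox (41.1±9.31) and 53.9 and 51.2 rpkm in R270H/R270H (52.5±1.93). R270H/R270H was above all other libraries, and flox/flox lay on both sides of +/+. The log2 fold changes were 0.22 in R270H/R270H against +/+ (95% interval −0.20 to 0.64, limma adjusted p=0.422), −0.14 in flox/flox against +/+ (−0.57 to 0.28, adjusted p=0.559) and 0.36 between the mutant genotypes (−0.06 to 0.79, adjusted p=0.158). Fitted with only +/+ and R270H/R270H, the difference between them had an adjusted p-value of 0.0174, and with weights for each genotype 0.0166. This difference was called in 4 of the 19 alternatives. Without flox/flox replicate 1 the flox/flox difference from +/+ was 0.08. Without flox/flox replicate 2 the flox/flox difference from +/+ was −0.37 and the difference between the mutant genotypes was 0.59.

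Of the 6 genes tested, Mdm2 was the 1 called in R270H/R270H against +/+, where 12.2% of all tested genes were called, 5.86% higher and 6.36% lower. In flox/flox against +/+, 2 of 6 were called, Trp53 and Mdm2, both lower, where 11.3% of all tested genes were called, 4.38% higher and 6.9% lower. In R270H/R270H against flox/flox, 2 of 6 were called, the same genes and both higher, where 24.6% of all tested genes were called, 13.6% higher and 11% lower. Trp53 is the gene that was inactivated in flox/flox and entered the test only through the other groups. Its calls in the comparisons with flox/flox therefore only check the label. The comparisons share their libraries, and their values are therefore set side by side without a test of how they overlap. The median log2 fold change of all tested genes was 0.028 in R270H/R270H against +/+, −0.025 in flox/flox against +/+ and 0.030 between the mutant genotypes.

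**Figure D3:**
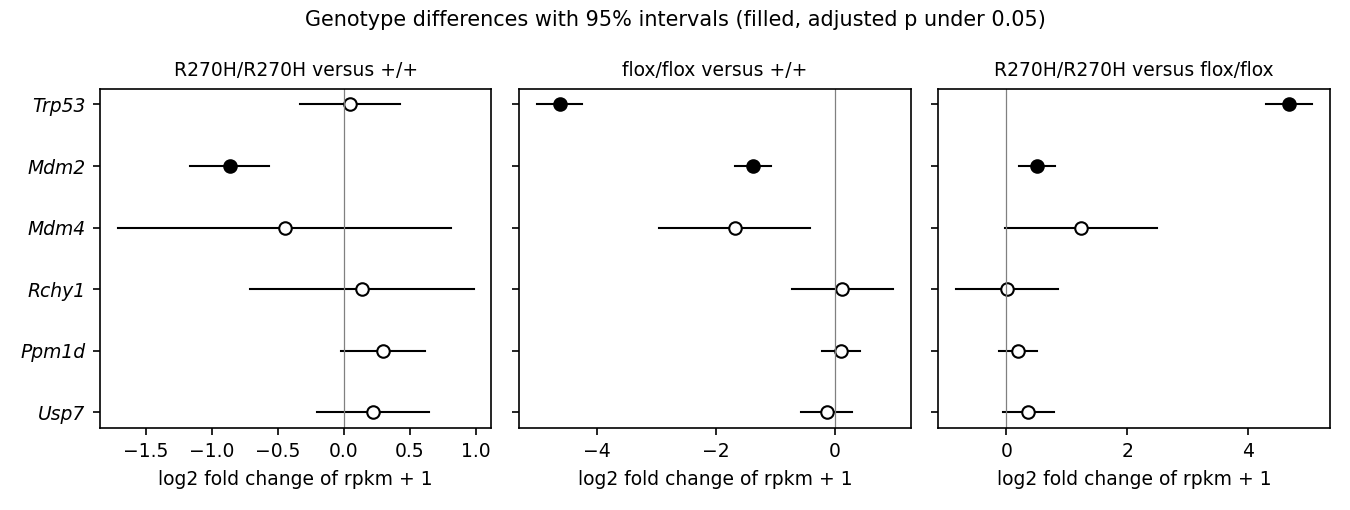
The 3 panels give the log2 fold change of rpkm+1 (point) and its 95% interval (line) for the 6 tested genes in each comparison, on axes of different width. Filled points, with adjusted p-values under 0.05, are Mdm2 in all 3 panels and Trp53 in both panels that involve flox/flox, and the intervals of Mdm4 and Rchy1 are the widest.

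Ratios between these genes were compared within each library as descriptions without a test, and they carry the Mdm2 difference described above. The ratio of Mdm2 to Trp53 in rpkm was 0.534 and 0.594 in +/+, 0.316 and 0.272 in R270H/R270H, and 8.33 and 6.82 in flox/flox, where the divisor was near the floor. There was less Mdm2 RNA per Trp53 RNA in both R270H/R270H libraries than in either +/+ library. Usp7 RNA was 1.10 and 1.03 times that of Mdm2 in +/+, 2.39 and 2.82 times in flox/flox and 2.34 and 2.28 times in R270H/R270H, without overlap between +/+ and the mutant genotypes. Mdm4 RNA was 0.747 and 0.721 times that of Mdm2 in +/+ and 1.02 and 0.959 times in R270H/R270H, whereas the flox/flox libraries, at 0.330 and 0.958, lay on both sides of +/+.

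The genes whose pattern over the 6 libraries was most like that of Trp53 and of Mdm2 were found by the root mean square difference of log2(rpkm+1) after each gene was centred on its own mean. For Mdm2 they were Pgpep1 (0.0434), Ccl25 (0.0475) and Tob1 (0.0537). Tob1, an antiproliferative gene, was 39.1 and 41.0 rpkm in +/+, 12.4 and 16.4 in flox/flox and 22.0 and 20.9 in R270H/R270H. For Trp53 no gene came as close, but this measure grows with the size of the change, which was larger in Trp53 than in Mdm2. The nearest were Gm10104 (0.558), Npy (0.591), which encodes neuropeptide Y, and Abcc2 (0.629), a transporter gene at 32.7 and 35.3 rpkm in +/+, 2.89 and 1.51 in flox/flox and 37.1 and 31.5 in R270H/R270H. Npy was 40.1 and 44.9 rpkm in +/+, 1 and 4.84 in flox/flox and 91.7 and 91.1 in R270H/R270H. Both R270H/R270H values of Npy were thus above both of its +/+ values, which was not so for Trp53.

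Further genes of the p53 regulatory network were grouped in 5 lists by function. Their counts of called genes are to be read against the shares of all tested genes that were called. These shares were 12.2% (R270H/R270H against +/+), 11.3% (flox/flox against +/+) and 24.6% (R270H/R270H against flox/flox). By that measure 1 of 11 or 2 of 16 genes called against +/+ is near the share of all genes. So are 2 of 14 or 2 of 15 in flox/flox against +/+, and between the mutant genotypes the counts of E3 ligases, acetylation and methylation enzymes and binding partners. Of 15 E3 ligases of p53 or Mdm2, 14 were tested. In R270H/R270H against +/+ 3 were called higher and 0 lower (median log2 fold change of the list 0.125), in flox/flox against +/+ 0 higher and 2 lower (median −0.016), and in R270H/R270H against flox/flox 3 higher and 1 lower (median 0.26). Trim24, a ligase that promotes p53 degradation, moved in opposite directions in the mutant genotypes. It was 21.8 and 20.8 rpkm in +/+, 13.9 and 15.3 in flox/flox and 31.8 and 29.1 in R270H/R270H. The genotypes did not overlap, and the log2 fold changes were −0.52 in flox/flox against +/+ (s.e. 0.11, limma adjusted p=0.0419), 0.50 in R270H/R270H against +/+ (s.e. 0.11, adjusted p=0.0444) and 1.01 between the mutant genotypes (s.e. 0.11, adjusted p=0.00649). The other calls against +/+ were Topors, a ubiquitin and SUMO ligase (0.50 in R270H/R270H, adjusted p=0.0339), Mkrn1, a RING ligase (0.58 in R270H/R270H, adjusted p=0.0305), and Wwp1, a HECT ligase (−0.97 in flox/flox, adjusted p=0.0467).

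Of 10 deubiquitinases, 9 were tested and limma called 0 in each of the 3 comparisons, with 1, 2 and 4 at an unadjusted p-value under 0.05 in R270H/R270H against +/+, flox/flox against +/+ and R270H/R270H against flox/flox. Their median log2 fold changes were 0.17, 0.030 and 0.19 in the same order. The unadjusted counts, here and for the kinases below, are to be read against all 10042 tested genes. Of these, 3209, 3489 and 4269 had an unadjusted limma p-value under 0.05 in the same order of comparisons. Of 11 kinases of p53, Mdm2 or Mdm4, 1 was called higher and 0 lower in R270H/R270H against +/+ (median −0.08), 0 in flox/flox against +/+ (median −0.21, 6 at an unadjusted p-value under 0.05) and 1 lower between the mutant genotypes (median 0.30). The gene called against +/+ was Mapk14, which encodes the stress kinase p38α, at 19.9 and 20.3 rpkm in +/+, 23.8 and 27.4 in flox/flox and 29.3 and 28.7 in R270H/R270H (0.50 in R270H/R270H, adjusted p=0.0434). Atm, Atr, Prkdc, Hipk2 and Dyrk2, named for their length, had longest transcripts of 6129 to 12647 nt. Over all tested genes of 6000 nt or more, the median was −0.31 in flox/flox against +/+ and 0.43 between the mutant genotypes. The part of transcript length in the kinase medians was not tested.

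All 16 enzymes that acetylate, deacetylate, methylate or demethylate p53 were tested. Against +/+ 2 were called higher in R270H/R270H (median of the list 0.14) and 1 higher in flox/flox (median −0.06), with 0 lower in either. Between the mutant genotypes 3 were called higher and 1 lower in R270H/R270H (median 0.23). Sirt1, a deacetylase that acts on p53, was 9.87 and 9.19 rpkm in +/+, 8.87 and 10.2 in flox/flox and 18.84 and 17.97 in R270H/R270H. Its R270H/R270H libraries were above all others, by 0.88 against +/+ on the log2 scale (s.e. 0.12, limma adjusted p=0.0145). Hdac1, another deacetylase, was 98.0 and 96.2 rpkm in +/+, 105.7 and 101.0 in flox/flox and 153.8 and 142.6 in R270H/R270H, a difference of 0.60 between R270H/R270H and +/+ (adjusted p=0.0241). Prmt5, an arginine methyltransferase, was called in flox/flox against +/+ (0.47, adjusted p=0.0352).

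Of 16 binding partners of p53 and inhibitors of Mdm2, 15 were tested, and their calls against +/+ were all lower, 3 in R270H/R270H (median 0.00066) and 2 in flox/flox (median 0.04). Between the mutant genotypes 1 was called higher and 3 lower (median −0.25). Ccng1, which encodes cyclin G1 and is also a known p53 target, was 189.7 and 212.9 rpkm in +/+, 25.9 and 24.6 in flox/flox and 18.2 and 18.2 in R270H/R270H. It fell by 2.94 on the log2 scale in flox/flox (s.e. 0.10, limma adjusted p=0.00124) and its log2 fold change in R270H/R270H was −3.39 (s.e. 0.10, adjusted p=0.00199). The genotypes did not overlap, and R270H/R270H was the lowest. Trp53inp1, a p53-inducible gene for a nuclear protein that binds p53, was 46.5 and 51.6 rpkm in +/+, 3.34 and 8.17 in flox/flox and 16.98 and 15.44 in R270H/R270H. Its log2 fold change was −2.99 in flox/flox (adjusted p=0.0147) and −1.54 in R270H/R270H (adjusted p=0.0511). Ppp1r13l, which encodes the p53 inhibitor iASPP, was called lower in R270H/R270H (−0.73, adjusted p=0.0395), and so was Banp, a p53-binding nuclear matrix protein (−0.76, adjusted p=0.0233). Both were under 4 rpkm in both R270H/R270H libraries and entered the test only through the groups in which they were higher, so these 2 calls and the count of 3 that holds them carry no weight as to direction. Both were also among the 3 called lower between the mutant genotypes, and the same limit applies to that count. Cdkn2a, whose products include the Mdm2 inhibitor Arf, was chosen after its values were seen, at 3.77 and 2.85 rpkm in +/+, 44.1 and 10.9 in flox/flox and 5.47 and 9.64 in R270H/R270H. All 4 mutant libraries were above +/+, and the log2 fold changes were 2.43 in flox/flox and 0.95 in R270H/R270H. Neither was called, and since both +/+ libraries were under 4 rpkm, Cdkn2a too entered the test only through the groups in which it was higher.

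**Figure D4:**
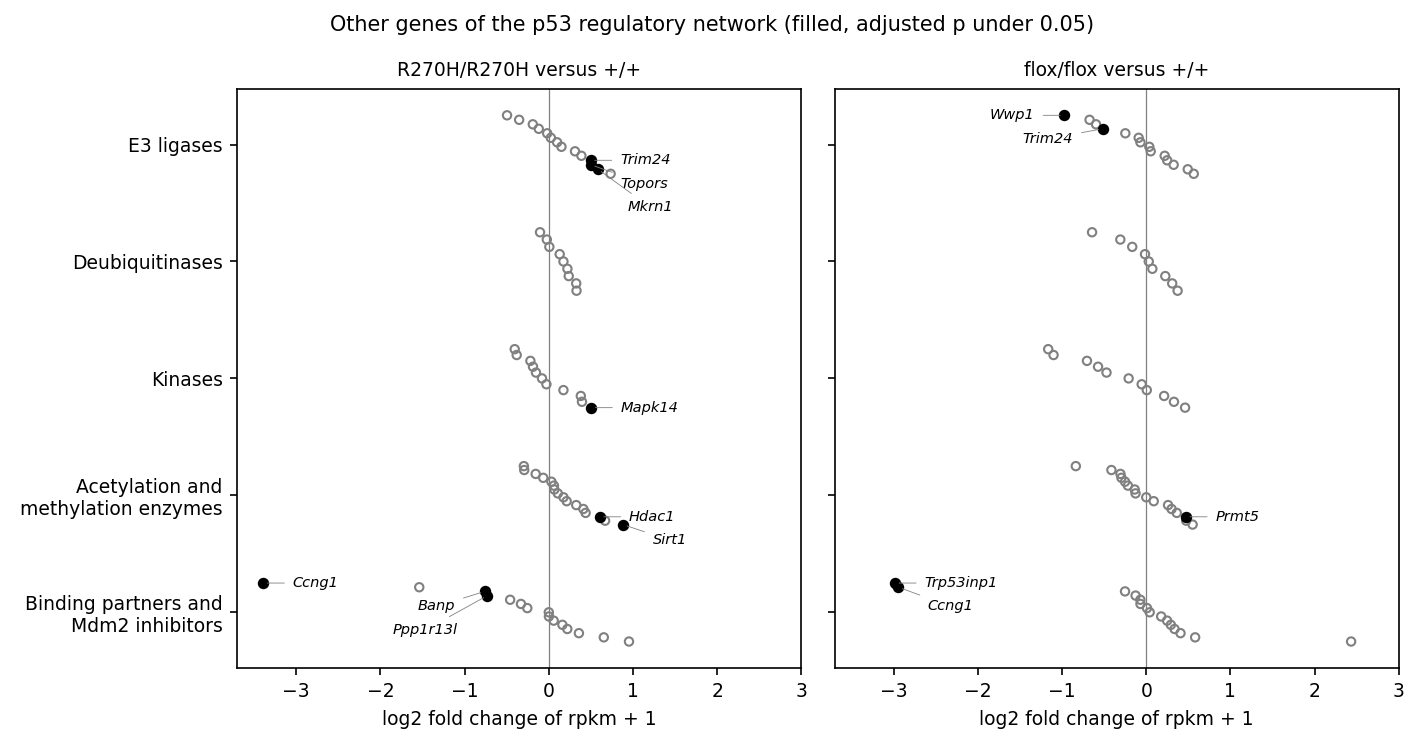
Points are the tested genes of the 5 lists, placed by their log2 fold change of rpkm+1 in R270H/R270H against +/+ (left) and flox/flox against +/+ (right), and spread vertically within a list by rank. Filled, named points have adjusted p-values under 0.05, and Ccng1, with −3.39 and −2.94, is far below 0 in both panels.

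The lists depended strongly on single libraries. Leaving out each library in turn gave between 0 and 8 called E3 ligases, 0 and 4 deubiquitinases, 0 and 6 kinases, 0 and 8 acetylation and methylation enzymes and 0 and 10 binding partners in R270H/R270H against +/+. In flox/flox against +/+ the counts in the same order of lists ranged from 0 to 8, 0 to 6, 0 to 9, 0 to 12 and 1 to 11, and in R270H/R270H against flox/flox from 0 to 9, 0 to 8, 0 to 10, 0 to 13 and 0 to 11. Without flox/flox replicate 1 alone, 6 E3 ligases were called higher and 2 lower, and 4 binding partners higher and 6 lower in R270H/R270H against +/+. In flox/flox against +/+, where the calls among binding partners were all lower, 5 were called higher and 4 lower without that library, and 4 higher and 3 lower with the length adjustment. Ccng1 in flox/flox against +/+ was called under all 19 alternatives, and in R270H/R270H against +/+ under 16. Trim24 was called in 10 of 19 alternatives in each comparison with +/+ and in 17 between the mutant genotypes, Sirt1 in 14 in R270H/R270H against +/+, and Wwp1 in 7 in flox/flox against +/+.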

How the data were processed

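Poly(A) RNA of the organoids was sequenced on an Illumina HiSeq by the authors, who used StrandNGS to obtain rpkm from reads mapped to mm10. The deposited table holds rpkm values of 36172 genes in 6 libraries, and the version and gene annotation of StrandNGS are not given in the sources used here. The lowest value is 1, so that smaller values appear to have been raised to 1, which is inferred from the values. The table holds no counts, and precision was taken from the spread between libraries, 2 per genotype, from separate mice.

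The 10042 genes that reached 4 rpkm in any library were fitted as log2(rpkm+1) with limma 3.58.1 in R 4.3.3 (lmFit, eBayes with a trend, all 6 libraries, genotype as the only term), two-sided, with a Benjamini-Hochberg threshold of 0.05. Genes were placed on GRCm38 with GENCODE M21, which matched 99.2% of them. Tables and figures were made with Python 3.11.15, pandas 2.3.3, numpy 2.4.6 and matplotlib 3.10.9. Tested on simulated data for R270H/R270H versus +/+ with 9458 genes, the code called 47 of 100 genes with a true log2 change of 1 and 85 of 100 with a change of 2, with 4 false calls. The simulation drew independent noise, gave each gene the same spread in all libraries and changed only genes above a set +/+ level. It held neither the wider spread of flox/flox nor a length trend, so these numbers check the code and do not carry over to these libraries.

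Alternatives were filters of above 1 rpkm, none, and 4 rpkm in both replicates, pseudocounts of 0.1 and 0, upper-quartile or median-of-ratios scaling, a replicate block, no trend, weights for each genotype, fits without the third genotype, and omission of each library. A block in which the R270H/R270H replicates swapped numbers and an adjustment for transcript length were added after seeing the data. The genes described and the lists were chosen with earlier results of these data known. Beside the 8 genes, those named are up to 4 per list called against +/+ with the largest change, any called in opposite directions, genes that overlap a member, the 3 nearest patterns for Trp53 and for Mdm2, and markers; exceptions are stated. 2 of the 6 multiciliated markers were not matched by symbol and not used here.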

Additional observations from a re-analysis of the deposited data

How the results depend on the processing

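limma with the settings of the report called 1227 genes in R270H/R270H against +/+, 1133 in flox/flox against +/+ and 2469 in R270H/R270H against flox/flox, and 1, 2 and 2 of the 6 tested genes described here. In the same order, no filter on low values gave 427, 73 and 750 genes and 0, 1 and 1 of these, and a filter of above 1 rpkm gave 1907 genes in the first comparison. Weights for each genotype gave 5987, 150 and 534 genes, with 4 of the set in the first comparison and 1 in the third, and fits of only the genotypes compared gave 5768, 59 and 397 genes, with 4, 1 and 1 of the set. In both settings the 4 were Mdm2, Mdm4, Ppm1d and Usp7, of which Ppm1d did not enter the test through +/+. The length adjustment gave 2105 and 2014 genes in the comparisons with +/+. Leaving out each library gave 0 to 5746, 8 to 6891 and 165 to 7241 genes, and 0 to 4, 1 to 5 and 1 to 5 of the set. The counts of 0 genes by limma came without +/+ replicate 1, +/+ replicate 2 and R270H/R270H replicate 1, where 1545, 1442 and 1569 genes had unadjusted p-values under 0.05. In the same comparison 0 of the set were called in these 3 fits, without R270H/R270H replicate 2 and with no filter, and 1, 1, 1, 1 and 2 had unadjusted p-values under 0.05. The cause of these changes was not tested.

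Differences that changed direction were those of Trp53 in R270H/R270H against +/+ without R270H/R270H replicate 2 (−0.045 to 0.14 over the libraries left out), of Rchy1 in flox/flox against +/+ without flox/flox replicate 1 (−0.40 to 0.64) and with the length adjustment (−0.042), of Usp7 in flox/flox against +/+ without flox/flox replicate 1 (−0.37 to 0.083), and of Rchy1 between the mutant genotypes with median-of-ratios scaling (−0.0078) and without flox/flox replicate 2 (−0.50 to 0.53). Mdm2 kept its direction in all 3 comparisons under the 19 alternatives.

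The replicate number as a block gave 550, 280 and 1156 genes, with 1 of the set called between the mutant genotypes in place of 2 (Mdm2, adjusted p=0.0679). Deviations of same-numbered libraries correlated at 0.117 (+/+ and flox/flox), −0.291 (+/+ and R270H/R270H) and −0.196 (flox/flox and R270H/R270H), and the numbers mark different mice, so the libraries share only a number. With R270H/R270H replicates swapped, a block chosen after seeing the data gave 941, 873 and 2276 genes.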

Other observations

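Wrap53, the gene that lies head to head with Trp53 on the opposite strand, was looked at after its values were seen. It was 10.3 and 11.1 rpkm in +/+, 18.4 and 14.9 rpkm in flox/flox and 12.3 and 12.2 rpkm in R270H/R270H. Both flox/flox libraries were above all others. The log2 fold change against +/+ was 0.59 in flox/flox (s.e. 0.13, limma adjusted p=0.0507) and 0.18 in R270H/R270H (adjusted p=0.410), and neither was called. The annotated spans of the 2 genes do not overlap, and whether the counting used the strand is not stated.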
